A study of Mus musculus with 4 samples.

Results

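Differentiation of cultured mouse myoblasts treated with a control siRNA was described from the difference, gene by gene, between a differentiating and a proliferating culture. The genes kept were those whose higher value in these 2 cultures reached 8.50 on the log2 scale, the median of all gene means over the 4 arrays of the study. This left 7856 of 14860 measured genes, called expressed here. Each gene was represented by 1 transcript cluster, a group of probes that the array treats as 1 transcript.

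The cells were C2C12, an immortalised myoblast line derived from mouse muscle satellite cells. Control proliferating cells were kept in high-glucose medium with 10% fetal bovine serum. Control differentiating cells were moved to medium with 2% horse serum at 80% confluence and collected 3 days later. The same states of cells given an siRNA against the long noncoding RNA MUNC (siMUNC) made up the other groups, and every culture had therefore received an siRNA. Each group had 1 array, so the differences below carry no replicate error and no p-value, and 1 array a group is what limits their precision. Values written as "from" and "to" are log2 array values of the proliferating and then the differentiating control culture, and a difference is the second minus the first, so that 1 is a 2-fold and 2 a 4-fold higher signal.

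Myoblasts become muscle in a fixed order. MyoD and Myf5 mark the cell as a myoblast. Myogenin and MEF2 factors then switch on the genes of the contractile apparatus while the cells leave the cell cycle for good, and the mononucleated cells fuse into myotubes. MyoD and myogenin bind E-boxes, MEF2 factors bind an AT-rich box, serum response factor binds the CArG box and TEAD factors bind the M-CAT element. Genes of replication and mitosis carry other elements in their promoters, among them the E2F site, the CCAAT box and the cell cycle homology region. Pocket proteins and their partner complexes silence these genes in resting cells through the E2F site and the cell cycle homology region.

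The line and its 2 states were first checked by marker genes. Myod1 went from 11.46 to 11.75, Myf5 from 10.43 to 10.19, the muscle cadherin Cdh15 from 11.55 to 11.70 and desmin (Des) from 13.17 to 13.63. All 4 myoblast markers were thus bright in both cultures and differed by less than 2-fold. Of the differentiation markers, Myog went from 8.43 to 12.21, a difference of 3.77. The fusion gene Mymk went from 9.80 to 13.65 and muscle creatine kinase (Ckm) from 7.91 to 11.55. All 3 read higher in the differentiating array. In the proliferating array Myog and Ckm read below 8.50, while Mymk was already above it.

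Promoters of 7 genes are shown because they carry the elements named above and belong to genes described below. They are RefSeq promoters of build GRCm38.p6, from 250 bases before to 50 after the annotated start, written 5′ to 3′ on the gene's strand. In the muscle genes capitals mark E-boxes (CANNTG), and also the MEF2 box in Myoz2 and Casq2. In Acta1 they also mark the CArG box, the M-CAT letters CATTCC and TATAAA. The MEF2 box was matched as YTAWWWWTAR, where Y is C or T, W is A or T and R is A or G. Close variants stay in lower case, such as ctatatttat in Myog, which departs from that pattern at its last base. In the cell cycle genes capitals mark CCAAT, and also TTTGAA (the core of the cell cycle homology region) in Ccnb2 and Aurka and the E2F-type letters TTTCGCGC in Mcm5. A match is a run of letters on either strand and does not show that a factor binds there.
Myog (chr1:134289754-134290053, plus strand): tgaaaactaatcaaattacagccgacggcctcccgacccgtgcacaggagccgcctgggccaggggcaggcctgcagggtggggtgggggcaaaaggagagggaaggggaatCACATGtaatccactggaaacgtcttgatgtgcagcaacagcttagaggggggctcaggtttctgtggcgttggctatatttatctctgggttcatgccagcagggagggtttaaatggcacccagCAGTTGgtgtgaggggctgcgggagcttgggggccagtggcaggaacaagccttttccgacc
Myoz2 (chr3:123034938-123035237, minus strand): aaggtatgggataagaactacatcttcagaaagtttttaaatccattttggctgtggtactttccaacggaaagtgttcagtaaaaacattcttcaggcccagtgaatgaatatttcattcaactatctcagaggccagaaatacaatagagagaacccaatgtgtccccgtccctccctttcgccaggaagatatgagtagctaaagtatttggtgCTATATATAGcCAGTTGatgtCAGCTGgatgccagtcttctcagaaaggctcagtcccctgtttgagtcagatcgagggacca
Casq2 (chr3:102086165-102086464, plus strand): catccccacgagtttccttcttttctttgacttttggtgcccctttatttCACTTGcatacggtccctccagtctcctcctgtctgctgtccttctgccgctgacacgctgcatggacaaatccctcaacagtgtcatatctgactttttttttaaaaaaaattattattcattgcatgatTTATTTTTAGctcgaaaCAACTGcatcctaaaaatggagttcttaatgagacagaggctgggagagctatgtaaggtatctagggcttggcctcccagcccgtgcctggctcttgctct
Acta1 (chr8:123894726-123895025, minus strand): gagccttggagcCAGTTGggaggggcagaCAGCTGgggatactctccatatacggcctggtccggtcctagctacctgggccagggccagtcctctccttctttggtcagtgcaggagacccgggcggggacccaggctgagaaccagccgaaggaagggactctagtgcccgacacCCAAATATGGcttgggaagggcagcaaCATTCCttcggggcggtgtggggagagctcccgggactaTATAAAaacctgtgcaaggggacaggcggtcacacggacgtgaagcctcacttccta
Ccnb2 (chr9:70421505-70421804, minus strand): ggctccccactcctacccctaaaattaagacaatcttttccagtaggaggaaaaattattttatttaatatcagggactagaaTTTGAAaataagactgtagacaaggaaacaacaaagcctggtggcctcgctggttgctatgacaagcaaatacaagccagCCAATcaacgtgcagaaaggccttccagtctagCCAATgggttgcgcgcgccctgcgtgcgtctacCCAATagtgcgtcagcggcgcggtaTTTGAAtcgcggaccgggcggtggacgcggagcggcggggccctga
Aurka (chr2:172370521-172370820, minus strand): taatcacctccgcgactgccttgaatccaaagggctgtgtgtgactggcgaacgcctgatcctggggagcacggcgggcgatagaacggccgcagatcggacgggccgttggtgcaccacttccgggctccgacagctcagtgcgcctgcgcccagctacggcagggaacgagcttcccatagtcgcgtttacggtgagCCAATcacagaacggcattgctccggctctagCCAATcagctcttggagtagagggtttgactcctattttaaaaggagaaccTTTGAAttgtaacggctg
Mcm5 (chr8:75109259-75109558, plus strand): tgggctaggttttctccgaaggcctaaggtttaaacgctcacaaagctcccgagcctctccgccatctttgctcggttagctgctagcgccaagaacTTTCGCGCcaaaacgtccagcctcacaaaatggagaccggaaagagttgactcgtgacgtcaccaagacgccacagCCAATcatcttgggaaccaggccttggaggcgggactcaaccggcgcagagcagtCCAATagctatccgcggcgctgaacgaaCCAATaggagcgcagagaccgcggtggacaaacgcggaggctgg

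Counted over groups of genes, these letters were spread unevenly. The RefSeq table held 146 promoters for 111 of the 150 genes past 4-fold higher, 151 promoters for 133 of the 162 genes past 4-fold lower, and 8295 promoters for 6407 of the 7856 expressed genes. The MEF2 box stood in 10.3% of promoters of genes past 4-fold higher (15 of 146, exact 95% binomial interval 5.87 to 16.4), against 1.58% of those of all expressed genes and 3.19% of the 32851 promoters in the table. CAGCTG, the E-box with a GC centre, stood in 30.8% (23.5 to 39.0) against 15.4% of expressed genes' promoters and against 16.3% in the whole table. Any E-box stood in 77.4% (69.7 to 83.9) against 62.5% of expressed genes' promoters, but the share in the whole table, 72.3%, lies within that interval. CATTCC was found in 22.6% (16.1 to 30.3) against 11.7% and 14.7% in these 2 comparison sets. On the other side, TTTGAA stood in 39.1% of promoters of genes past 4-fold lower (59 of 151, 31.2 to 47.3), against 11.9% for expressed genes and 17.9% in the whole table. CCAAT stood in 55.6% (47.3 to 63.7) against 37.8% and 37.4%, and TTTCGCGC in 3.97% (1.47 to 8.45) against 0.675% and 0.323%. The CArG box did not set either group apart, with 2.06% and 1.99% against 1.29%, and neither did TATAAA among the lower genes, with 8.61% against 6.72%. Among the higher genes TATAAA stood in 15.8% (10.3 to 22.7) against 6.72% of expressed genes' promoters, but the interval holds the 13.6% of the whole table. Every CAGCTG is also a CANNTG. Intervals cover counting error only, and several promoters can belong to 1 gene.

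In all, 926 of 7856 expressed genes, or 11.8%, were past 2-fold between the control cultures. Of these 409 (5.21%) were higher and 517 (6.58%) lower in differentiating cells. Past 4-fold were 150 higher (1.91%) and 162 lower (2.06%). The higher genes reached further: 68 were past 8-fold, 32 past 16-fold and 10 past 32-fold, against 8, 1 and 0 of the lower genes. The higher genes mostly started from faint signals, and 123 of the 150 past 4-fold read below 8.50 in proliferating cells, where their median was 7.69. Of the lower genes 108 of 162 read below 8.50 in differentiating cells, with a median of 8.09 there and 10.6 in proliferating cells. For comparison, 0.397% of 7564 expressed genes were past 2-fold between the 2 proliferating arrays, and 4.26% of 7672 in the differentiation of siMUNC cells.

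**Figure D1:**
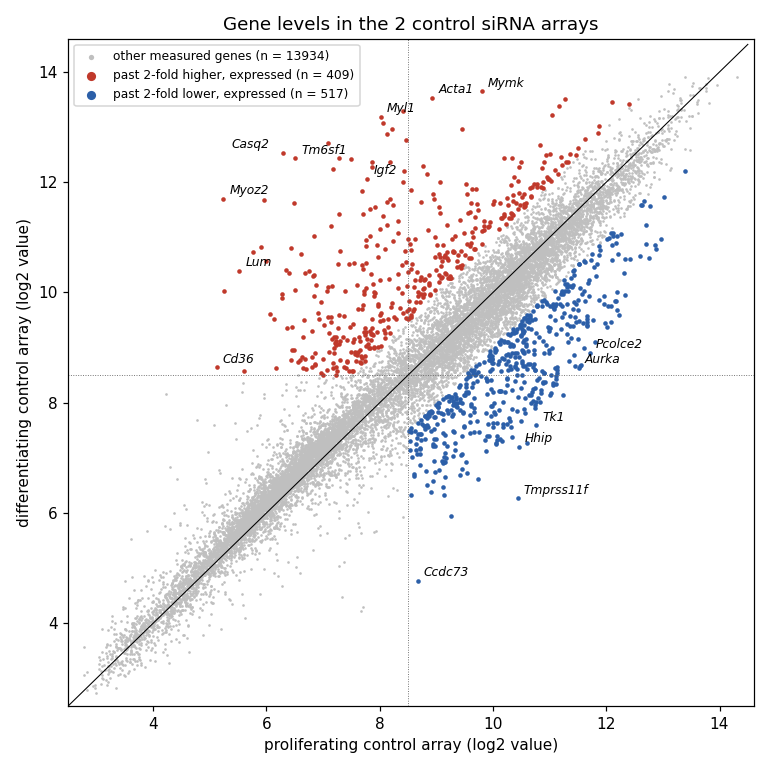
Log2 values of all 14860 measured genes in the proliferating (x axis) and differentiating (y axis) control arrays. Red points are the 409 expressed genes past 2-fold higher and blue points the 517 past 2-fold lower in differentiating cells, the line is equality and dotted lines mark 8.50. Red points reach further from the line than blue ones.

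A shift in the faint signals belongs beside every small difference. Sorted by mean level into 10 groups of 1486 genes, the 5 dimmer groups had medians of the control difference from 0.08 to 0.21 and the 5 brighter ones from -0.11 to -0.08. In siMUNC cells the corresponding medians lay between -0.06 and 0.002. The difference between the proliferating arrays, siMUNC minus control, showed the same shape as the control difference, with medians up to 0.18 in a dim group and down to -0.04 in a bright one, and it shares the proliferating control array. Over all measured genes the median difference was 0.05, over expressed genes -0.09 and over genes below 8.50 it was 0.15. List medians of this size lie within that shift. The 10 measured housekeeping genes had a median of -0.37, with 7 below 0 and the dim Rplp0 (-1.28) past 2-fold lower. Small negative list medians are to be read beside that value too.

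Values next to the thresholds were close on both sides. Reep1, from 6.55 to 8.50, fell just short of the level limit although its difference was 1.95, and Mtg1, from 8.50 to 8.19, just met it. Ctsf (0.999) lay just short of 2-fold and Sorbs2 (1.0005, from 11.15 to 12.15) just past it on the higher side. On the lower side these were Eif4a3 (-0.998, from 8.51 to 7.52) and Ccl7 (-1.003, from 11.52 to 10.52).

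**Figure D2:**
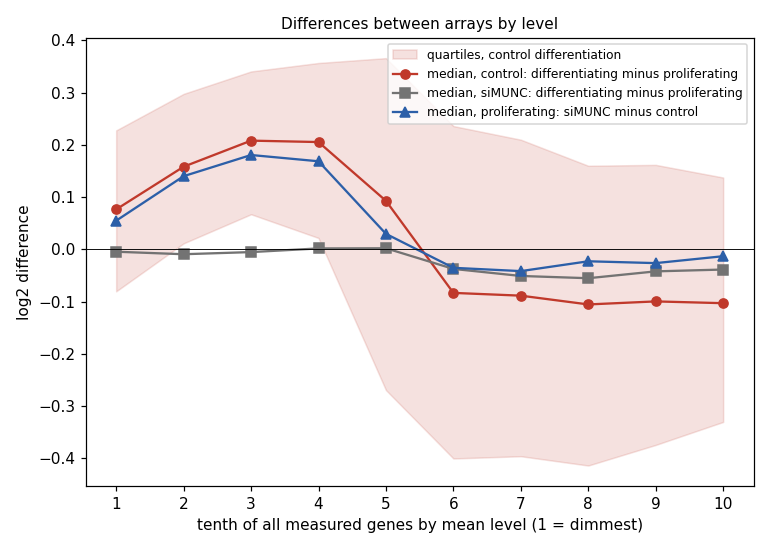
Median log2 difference (y axis) in each of 10 groups of the measured genes by mean level (x axis) for differentiation in control cells (red circles, with quartiles shaded), differentiation in siMUNC cells (grey squares) and the proliferating arrays (blue triangles). The red and blue lines reach 0.21 and 0.18 in the same dim group, while the grey line stays within 0.06 of 0.

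Of 370 list or named genes past 2-fold, 328 stayed past it under all 6 alternatives of normalization, background and cluster choice, and the losses are given beside the lists they touch most. The 62 gene lists below were counted over all measured members, dim ones included. They were chosen with earlier results of these data known, so their shares past 2-fold may be partly set by that choice. For comparison, among all 14860 measured genes the share past 2-fold was 3.53% on the higher side and 4.08% on the lower. The muscle lists together held 216 genes, of which 83 were past 2-fold higher and 3 lower. The cell cycle lists held 207, of which 4 were higher and 142 lower. Genes of the cell cycle lists made up 97 of the 162 expressed genes past 4-fold lower, against 201 of all 7856 expressed genes. Genes of the muscle lists made up 51 of the 150 past 4-fold higher, against 165 of the 7856. How many large differences lay outside these lists depends on which genes the lists were given, so the directions are not compared here.

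**Figure D3:**
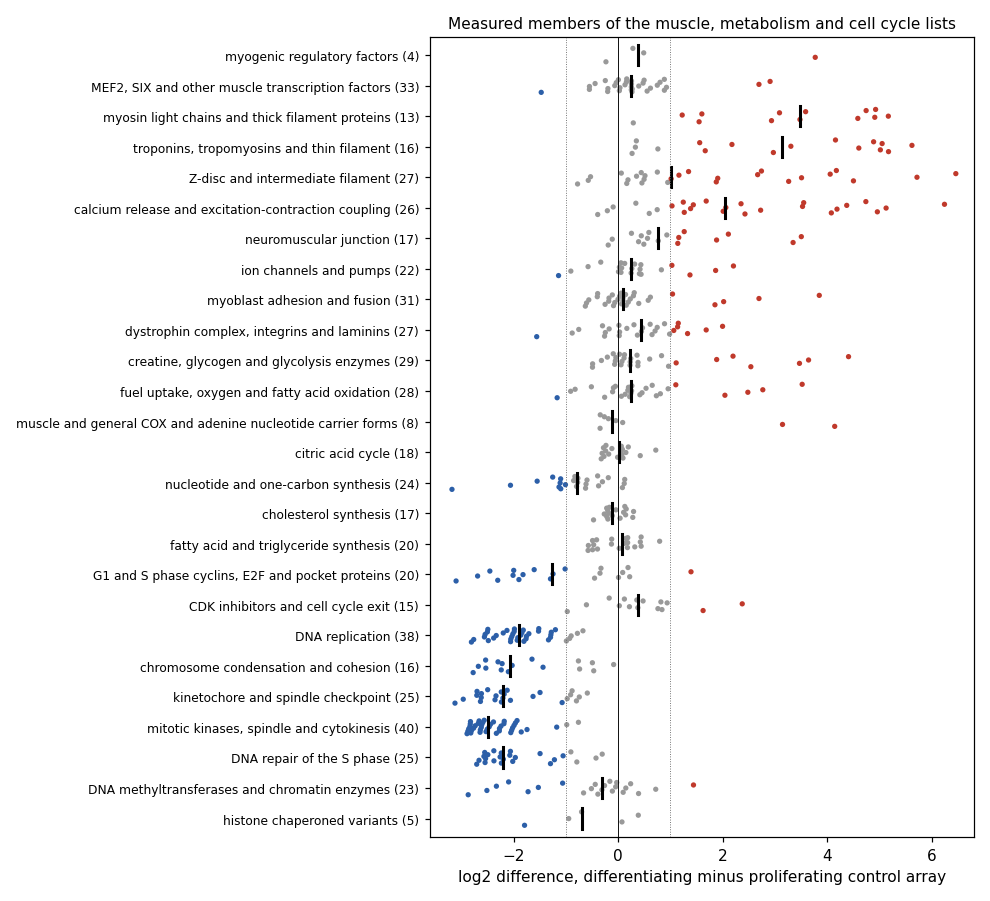
Log2 difference between the control arrays (x axis) for each measured member of the muscle, metabolism and cell cycle lists (rows, with the number of members). Red points are past 2-fold higher, blue points past 2-fold lower, black bars are medians and dotted lines mark 2-fold. Thick and thin filament lists have medians of 3.48 and 3.14, and the mitotic list -2.48.

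Of the 4 myogenic regulatory factors, myogenin was past 2-fold higher while the determination factors stayed near their starting values. Myf6, a factor of maturing fibres, went from 7.75 to 8.24 and stayed below 8.50. Among 33 MEF2 and other muscle transcription factors, 2 were past 2-fold higher and 1 lower. Mef2c went from 8.23 to 10.93 (difference 2.70) and the muscle methyltransferase Smyd1 from 7.95 to 10.86 (2.91). Mef2a differed by 0.93 and Mef2d by 0.89. Mbnl3, a splicing regulator of the muscleblind family that is known from proliferating myoblasts, went from 11.69 to 10.22 (-1.47), while Mbnl1 differed by -0.44 and Mbnl2 by 0.02. Srf and its coactivator Mrtfa differed by -0.06 and -0.24. Of the 33, 30 differed by less than 2-fold.

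Several factors known to hold myoblasts undifferentiated were lower in the differentiating array. Id1, Id2 and Id3, which lack a DNA-binding region and titrate the partners of MyoD, went from 10.09 to 8.70, from 11.68 to 10.17 and from 10.52 to 9.34. Id4 differed by 0.40. Among the 17 Id proteins and repressors these 3 were the members past 2-fold lower, and the MYC antagonist Mxd4 was higher by 1.02, or by 0.97 under another setting. In the Notch pathway, which keeps progenitors from differentiating, the ligand Dll1 went from 7.86 to 9.52 (1.66) and Lfng, a glycosyltransferase that tunes the receptors, from 10.88 to 9.12 (-1.77). The receptors Notch1, Notch2 and Notch3 differed by 0.42, -0.28 and 0.61, and the target genes Hes1, Hey1 and Heyl by -0.44, -0.54 and 0.86. Pax7, the satellite cell factor, went from 9.37 to 10.01.

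Of 23 listed thick filament genes 13 were measured, and 12 of these were past 2-fold higher, 9 of them past 4-fold. The other 10 were not among the measured genes, so the list covers only part of the thick filament. The light chains Myl1 and Mylpf went from 8.02 to 13.19 and from 7.50 to 12.43. Mybpc1 and Mybpc2, the slow and fast myosin-binding proteins, differed by 4.91 and 2.94, while the cardiac form Mybpc3 differed by 0.29 and stayed dim. Myom1 and Myom2, which crosslink myosin at the M-line, differed by 4.59 and 3.59. Unc45b, the chaperone that folds myosin, went from 6.84 to 10.32 (3.48). Myl2 (1.55) was dim in both arrays, and values below the 25th percentile set to it left a difference of 0.06.

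Of 25 listed thin filament genes 16 were measured, with a median of 3.14, and 12 were past 2-fold higher. Troponin genes of fast fibres (Tnnc2 5.62, Tnni2 4.16, Tnnt3 4.89) and of slow fibres (Tnnc1 5.02, Tnni1 5.17) were among them, so neither fibre type stood alone. The embryonic and cardiac Tnnt2 started higher, at 11.04, and reached 13.21 (2.18). Skeletal actin (Acta1) went from 8.93 to 13.54. Cap2, which recycles actin monomers, went from 7.18 to 12.23 (5.05), a 33.2-fold difference. Tpm2 was past 2-fold higher (1.56) and Tpm1 was not (0.35). Tpm3, a slow-muscle tropomyosin that also has non-muscle forms, was past 2-fold higher among the non-muscle actomyosin genes (1.82).

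At the Z-disc and in the intermediate filaments, 14 of 27 genes were past 2-fold higher and the list ran from -0.78 to 6.46. Myoz2, which tethers calcineurin to the Z-disc, went from 5.24 to 11.70, a difference of 6.46. Its proliferating value lay among the faint signals, so the size of the difference is uncertain. With values below the 25th percentile set to it the difference of Myoz2 was 5.35, and with an offset of 50 it was 5.27. In the deposited values Myoz2 came before Casq2 (6.24), whereas in both of these settings Casq2 had the wider difference, 6.19 and 5.54. Smpx, a small protein of the costamere, went from 5.96 to 11.68 (5.72). The stretch-responsive ankyrin repeat genes Ankrd2 and Ankrd23 differed by 4.50 and 3.51, whereas Ankrd1 differed by 0.19. Actn2, the alpha-actinin of slow and fast fibres, went from 6.35 to 10.41 (4.06), and Actn3, its fast-fibre relative, from 10.50 to 12.37 (1.88). The 3 members of this list below 0 were LIM-domain genes, all within 2-fold: Fhl2 (-0.53), Fhl3 (-0.57) and Pdlim5 (-0.78).

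Calcium handling gave the list with the most members past 2-fold higher, 20 of 26, with 14 past 4-fold. The calcium stores Casq2 and Casq1 went from 6.29 to 12.54 and from 5.77 to 10.73. The voltage sensor Cacna1s went from 6.49 to 11.62 (5.13) and the release channel Ryr1 from 8.77 to 12.30 (3.53). Triadin (Trdn, 4.37), which anchors calsequestrin to the channel, Hrc (4.08) and sarcalumenin (Srl, 4.19) followed. The calcium pump of fast fibres Atp2a1 differed by 4.74 and the general pump Atp2a2 by 0.60. Its inhibitors sarcolipin (Sln) and phospholamban (Pln) stayed dim, with differences of 0.34 and -0.09. Junctophilins Jph1 (2.35) and Jph2 (1.69), which hold the membranes of the triad together, and the adaptor Stac3 (2.06) were past 2-fold higher, as was parvalbumin (Pvalb, from 6.06 to 9.62).

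Genes of the neuromuscular junction were past 2-fold higher in 7 of 17 cases. The acetylcholine receptor subunits differed in size. The fetal subunit Chrng went from 9.45 to 12.96 (3.51), Chrnd from 10.33 to 12.44 (2.11), Chrnb1 from 11.35 to 12.51 (1.16) and Chrna1 from 13.09 to 13.66 (0.56). The adult subunit Chrne stayed below 8.50. The agrin receptor Lrp4 (1.88), its kinase Musk (1.14) and the adaptor Dok7 (1.26) were past 2-fold higher, and the clustering protein Rapsn was not (0.59). Erbb3, a neuregulin receptor, went from 8.24 to 11.59 (3.35). Of 22 ion channels and pumps, 4 were past 2-fold higher and 1 lower, of which 3 and 0 stayed past it under all alternatives, led by the calcium-activated potassium channel Kcnn3 (2.21) and the sodium pump subunit Atp1b2 (1.87). The chloride channel Clcn1, a gene of mature fibres, was dim with a difference of 0.01.

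Most fusion and adhesion genes, 26 of 31 measured members, were within 2-fold, and their median of 0.09 was near that of all genes. Still, 5 of the 31 were past 2-fold higher, 4 of them under all alternatives, a larger share than the 3.53% of all measured genes. Myomaker (Mymk, 3.85), which is needed for membrane fusion, dysferlin (Dysf, 2.70), which repairs the membrane, and the engulfment adaptor Elmo1 (2.02) were past 4-fold. The adhesion molecules Cdh2 (0.40), Cdh15 (0.14), Vcam1 (0.07), Jam3 (0.62) and Jam2 (-0.60) were within 2-fold. In the dystrophin complex and its ligands, 6 of 27 were past 2-fold higher and 1 lower. They included alpha-sarcoglycan (Sgca, 1.999), nidogen 2 (Nid2, 1.69), dystroglycan (Dag1, 1.15) and the laminin receptor subunit Itga7 (1.14). Itgb3, an integrin subunit that binds vitronectin, went from 10.14 to 8.58 (-1.56).

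**Figure D4:**
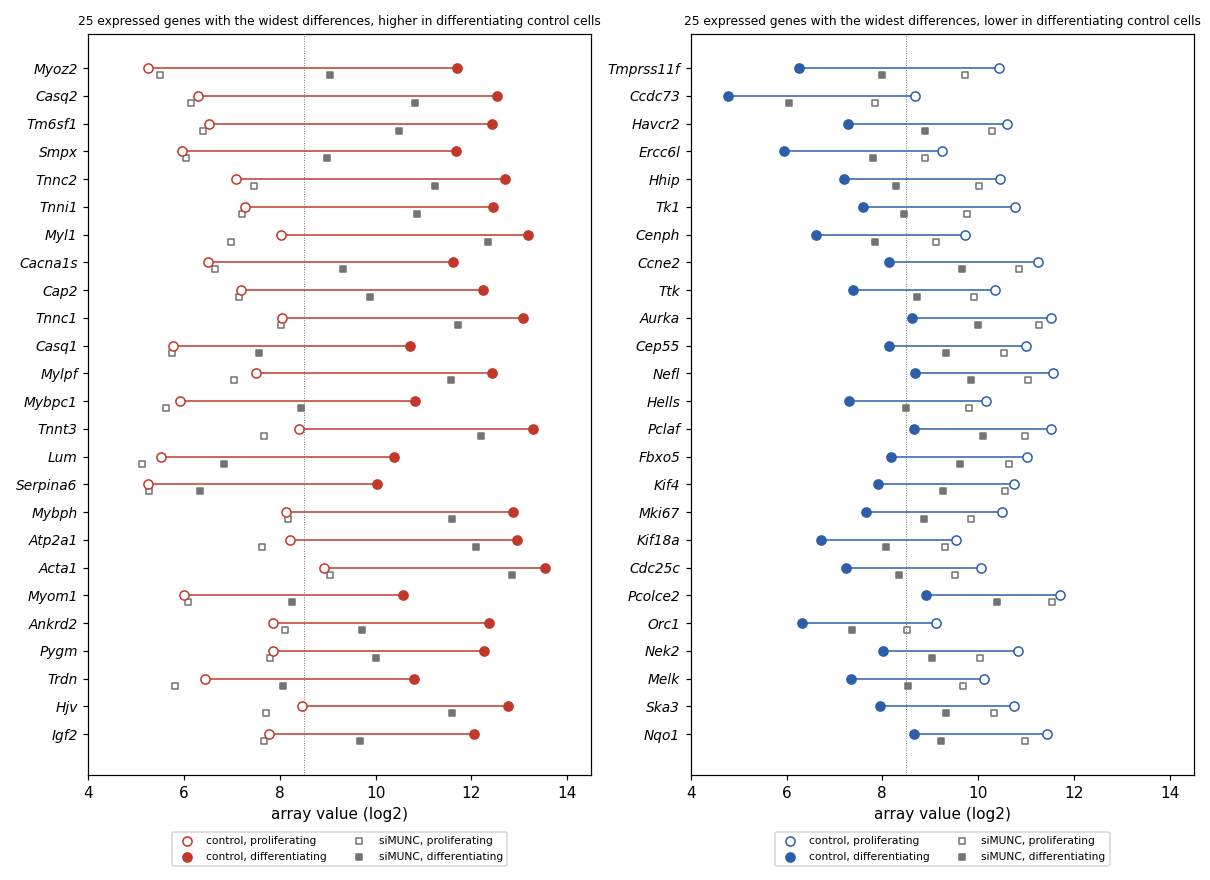
Array values (x axis, log2) of the 25 expressed genes most strongly higher (left) and the 25 most strongly lower (right) in differentiating control cells, leaving out unnamed gene models and chemosensory receptors. Open and filled circles are the proliferating and differentiating control arrays, grey squares the siMUNC arrays, and the dotted line marks 8.50. In 24 of 25 genes on the left and 25 of 25 on the right the control difference is the wider one.

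Among energy metabolism genes the wide differences lay in muscle isoforms. In the list of creatine, glycogen and glycolysis enzymes 7 of 29 were past 2-fold higher and 0 lower. Glycogen phosphorylase Pygm went from 7.86 to 12.27 (4.41) whereas the brain form Pygb differed by -0.49. Phosphoglycerate mutase Pgam2 went from 6.83 to 10.30 (3.47), and phosphofructokinase Pfkm differed by 1.89 against -0.49 for the liver form Pfkl and -0.04 for the platelet form Pfkp. Muscle creatine kinase Ckm differed by 3.64 and the brain form Ckb by 0.38. Eno3, the muscle enolase, was an exception at 0.23.

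The muscle subunits Cox8b and Cox6a2 of cytochrome oxidase went from 7.27 to 11.42 (4.14) and from 8.01 to 11.15 (3.15). The general forms Cox6a1 (-0.19), Cox7a2 (-0.34), Cox4i1 (0.09) and Cox5a (-0.26) were within 2-fold. Of 18 citric acid cycle genes 0 were past 2-fold, and the widest difference was that of Pdha1 (0.72). Fuel uptake was more mixed, with 5 of 28 past 2-fold higher and 1 lower. The fatty acid transporter Cd36 went from 5.12 to 8.64 (3.52), the fatty acid carrier Fabp3 from 7.84 to 10.33 (2.48), myoglobin (Mb) from 7.76 to 10.53 (2.77) and the pyruvate dehydrogenase kinase Pdk2 from 7.89 to 9.94 (2.04). Pdk4, its relative induced by fasting, went the other way, from 9.67 to 8.51 (-1.17). The ubiquitous glucose transporter Slc2a1 differed by -0.91 and the insulin-responsive Slc2a4 by 1.10, or by 0.84 under another setting. Of 17 cholesterol synthesis genes and 20 genes of fatty acid and triglyceride synthesis, 0 were past 2-fold.

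Cell division genes were lower almost throughout. Of 40 genes of mitotic kinases, spindle and cytokinesis 38 were past 2-fold lower, 32 of them past 4-fold, with a median of -2.48. Only Ube2c (-0.98) and Ccnf (-0.76) were within 2-fold. Aurka, a spindle pole kinase, went from 11.52 to 8.63 (-2.89), Plk1 from 12.19 to 9.69 (-2.50), Cdk1 from 12.60 to 10.66 (-1.93) and Ccnb2, which encodes a B-type cyclin, from 12.85 to 10.86 (-1.99). Mki67, which encodes the Ki-67 antigen used to mark dividing cells, went from 10.50 to 7.67 (-2.83). In the kinetochore and spindle checkpoint list 19 of 25 were past 2-fold lower (median -2.20), led by Cenph (-3.12), Ttk (-2.96), Nuf2 and Bub1 (both -2.70). Condensin and cohesion genes split by role. Condensin subunits Smc2 (-2.53), Smc4 (-1.65), Ncapd2 (-2.03) and Ncaph (-2.22) and the cohesion regulators Esco2 (-2.77), Sgo1 (-2.67) and Cdca5 (-2.24) were past 2-fold lower, while the cohesin ring genes Smc1a (-0.49), Smc3 (-0.47), Rad21 (-0.74), Stag1 (-0.76) and Stag2 (-0.08), which also act outside division, were not.

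DNA replication genes were past 2-fold lower in 33 of 38 cases, with a range from -2.81 to -0.67 and a median of -1.89. The 6 subunits of the helicase loaded at origins were close together, from -2.56 for Mcm5 and -2.54 for Mcm3 to -1.99 for Mcm7. Orc1, the origin recognition subunit that cycles, went from 9.13 to 6.32 (-2.81), while Orc6 differed by -1.29. Polymerase genes ranged from Pole (-2.49) and Pola1 (-1.93) to Pold1 (-0.90) and Pold2 (-0.99). Repair genes of S phase followed, with 21 of 25 past 2-fold lower (median -2.20), among them Brca1 (-2.49), Brca2 (-2.06), Bard1 (-2.66), Chek1 (-2.55) and Uhrf1 (-2.70). Atm (-0.90), Parp1 (-0.42) and Ung (-0.30) were within 2-fold. Of 24 nucleotide and one-carbon synthesis genes 9 were past 2-fold lower, thymidine kinase Tk1 from 10.77 to 7.59 (-3.18), thymidylate synthase Tyms from 10.71 to 8.65 (-2.06) and dUTPase (Dut) from 10.38 to 8.84 (-1.55), against Cad (-1.11), Ctps (-1.13) and Umps (-1.10) of pyrimidine synthesis and Paics (-0.37) and Gart (-0.62) of purine synthesis.

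Of 20 genes of G1 and S phase cyclins, E2F factors and pocket proteins 12 were past 2-fold lower. Ccne2 went from 11.24 to 8.14 (-3.10), Ccne1 from 10.94 to 9.04 (-1.90), Ccna2 from 12.96 to 10.96 and Ccnd1, the cyclin that answers to serum, from 12.70 to 10.88 (-1.82). Ccnd3 (0.19), a cyclin known to persist in differentiating muscle, and Ccnd2 (-0.35) were within 2-fold, as were the kinases Cdk2 (0.01) and Cdk4 (-0.33). The pocket protein genes went separate ways, with Rb1 from 10.87 to 12.26 (1.40), Rbl1 from 10.90 to 8.89 (-2.01) and Rbl2 at 0.09. The repressor E2f7 differed by -2.45 and its relative E2f8 by -0.45. Among 15 inhibitors and exit genes, 2 were past 2-fold higher, Gadd45a (from 9.07 to 11.44) and the p57 gene Cdkn1c (from 7.73 to 9.36). The p21 gene Cdkn1a was bright before, at 12.56, and reached 13.50 (0.94).

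Of 23 DNA methyltransferase and chromatin enzyme genes 7 were past 2-fold lower. These included the remodeller Hells (from 10.17 to 7.30), the histone chaperones Chaf1b (-2.51), Chaf1a (-1.72) and Asf1b (-2.09), the H3 lysine methyltransferase Suv39h2 (-2.33) and Hmga2 (-1.53). The Polycomb methyltransferase Ezh2 differed by -1.06, a margin that other scalings put at -0.98, and its relative Ezh1 by 0.72. Hdac11 was the member past 2-fold higher, from 7.18 to 8.62 (1.44). The replication-coupled variant gene H2ax went from 10.51 to 8.72 (-1.79).

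In the insulin and IGF axis 5 of 24 genes were past 2-fold higher and 1 lower. Igf2, a growth factor that muscle cells make for themselves during differentiation, went from 7.78 to 12.07 (4.29), a 19.5-fold difference. Igf1 went from 6.37 to 9.36. The receptor gene Igf1r differed by -0.29, and Igf2r, which takes up and degrades IGF2, by 1.09. Binding proteins went both ways: Igfbp4 from 7.30 to 9.12 (1.83), Igfbp2 from 11.88 to 9.87 (-2.01) and Igfbp5 by 0.17. The noncoding H19, which lies next to Igf2 and is imprinted in the opposite sense, was bright from the start and went from 13.38 to 13.91.

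In other signalling families most members were within 2-fold. Of 31 FGF, EGF, PDGF and HGF genes, 3 were past 2-fold higher and 6 lower, 3 of the lower ones dim. Under all alternatives 2 of the higher and 2 of the lower genes stayed past 2-fold. Fgf21, a hormone of the starvation response, went from 7.14 to 9.55 (2.41) and the receptor Fgfr4 from 7.96 to 9.76 (1.80). The EGF-family ligands Ereg (-1.76) and Hbegf (-1.52) were past 2-fold lower. Of 37 TGF-beta, BMP and activin genes, 6 were past 2-fold higher and 1 lower, and 5 and 0 under all alternatives. Follistatin (Fst), which binds activin and myostatin and so favours muscle growth, went from 7.88 to 10.15 (2.28), the BMP antagonist chordin (Chrd) from 7.73 to 9.23 and Bmp4 itself from 9.54 to 10.87 (1.33). Spry1, an inhibitor of receptor tyrosine kinase signalling, went from 7.77 to 10.08 (2.32), while Spry2 and Spry4 differed by -0.03 and -0.29. Of 32 serum response genes 2 were past 2-fold higher and 5 lower, and 2 and 4 under all alternatives. The lower ones included the connective tissue growth factor gene Ccn2 (-1.78), Fosl1 (-1.60) and the phosphatase gene Dusp4 (-1.49). Fos, Jun and Egr1 differed by 0.41, -0.01 and 0.67. Of 34 Wnt genes 2 were past 2-fold higher, 1 of them under all alternatives, and 0 lower.

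**Figure D5:**
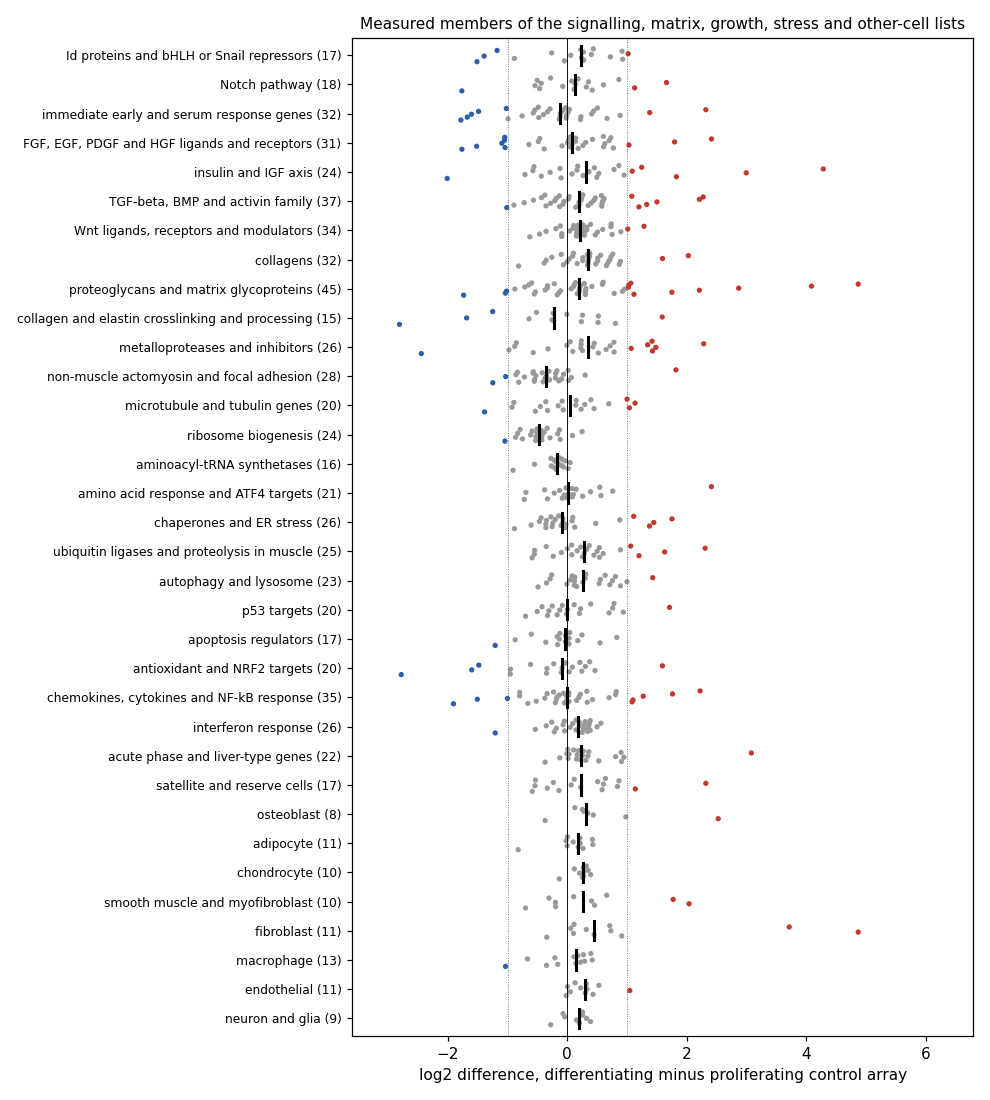
Log2 difference between the control arrays (x axis) for each measured member of the signalling, matrix, cytoskeleton, growth, stress and other-cell lists (rows, with the number of members). Red points are past 2-fold higher, blue points past 2-fold lower, black bars are medians and dotted lines mark 2-fold. Every median lies between -0.48 and 0.45, with a few members far out, such as Lum at 4.87 and Pcolce2 at -2.81.

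Of 45 proteoglycan and matrix glycoprotein genes 9 were past 2-fold higher, 4 of them dim, and 3 lower, with a median of 0.20. Under all alternatives 6 of the higher and 1 of the lower genes stayed past 2-fold. Thbs3 (-1.04) and the hyaluronan receptor Cd44 (-1.02) were lower by the smaller margins. Several of the higher genes were small leucine-rich proteoglycans, which bind collagen fibrils. Lumican (Lum) went from 5.52 to 10.39 (4.87), asporin (Aspn) from 6.61 to 10.69 (4.09), Prelp from 6.96 to 9.82 (2.87), decorin (Dcn) from 11.17 to 13.38 (2.21) and Ogn from 11.86 to 12.89 (1.03). Biglycan (Bgn, 0.60) was within 2-fold. On the chromosomes Aspn, Omd and Ogn are neighbours, as are Dcn and Lum. Of 32 collagens 2 were past 2-fold higher, the type VI chains Col6a1 (1.59) and Col6a2 (2.03), which are also neighbours, while Col1a1 (0.10), Col1a2 (-0.26) and Col3a1 (0.71) were within 2-fold.

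Pcolce2, an enhancer of procollagen processing, went from 11.71 to 8.90 (-2.81), the lysyl oxidases Loxl2 and Loxl4 differed by -1.69 and -1.25, and the crosslinking Tgm2 by 1.59. Of 26 metalloprotease and plasminogen-system genes 6 were past 2-fold higher and 1 lower. The aggrecanase Adamts5 went from 8.86 to 11.14 (2.28), the neighbouring Adamts1 from 9.32 to 10.74 (1.42) and the gelatinase Mmp2 from 12.10 to 13.45 (1.34). The urokinase receptor Plaur went from 10.33 to 7.89 (-2.44), and urokinase itself (Plau) differed by -0.98. Cytoskeletal genes of non-muscle cells had a median of -0.36 over 28 members, with Cfl1 (-1.25) past 2-fold lower and Lasp1 (-1.03) at the threshold.

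Protein synthesis genes differed little, while some stress genes were past 2-fold. Ribosome biogenesis genes had a median of -0.48 over 24 members, 1 of them past 2-fold lower and 0 under all alternatives. None of 16 aminoacyl-tRNA synthetases was past 2-fold. Among chaperones the small heat shock genes Hspb2 (1.75), Hspb3 (1.38, dim) and Hspb8 (1.11) and the chaperone Dnajb5 (1.45) were past 2-fold higher, while the endoplasmic reticulum chaperone Hspa5 differed by -0.10. Hspb7, counted with the Z-disc, went from 6.84 to 11.02 (4.18). Proteolysis genes of muscle gave 4 of 25 past 2-fold higher, 2 of them under all alternatives, with the atrophy ligase Fbxo32 from 8.48 to 10.11 (1.63) and Klhl31 from 8.44 to 10.75 (2.31). Targets of NRF2, the factor of the antioxidant response, included 3 genes past 2-fold lower: the quinone reductase Nqo1 from 11.44 to 8.66 (-2.78), Srxn1 (-1.60) and Gsta4 from 12.70 to 11.22 (-1.48). Other targets, Hmox1 (-0.62) and Prdx1 (-0.34), were within 2-fold, and so was the gene of the factor, Nfe2l2 (-0.09). Txnip, which binds thioredoxin, went the other way, from 10.01 to 11.60 (1.59).

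Of 35 chemokine and cytokine genes 5 were past 2-fold higher and 3 lower. Ccl2, which draws monocytes, went from 10.57 to 8.67 (-1.91) and the prostaglandin synthase gene Ptgs2 from 10.58 to 9.07 (-1.51). The B-cell chemokine Cxcl13 went from 8.55 to 10.78 (2.22), Cxcl12 from 9.37 to 10.47 (1.10) and Il15, which muscle secretes, from 7.79 to 9.07 (1.27). Among 22 acute phase and liver-type genes 1 was past 2-fold higher, the lipopolysaccharide-binding protein Lbp, from 7.76 to 10.84 (3.08). Of 29 Hox genes 0 were past 2-fold, and of 26 interferon response genes 0 were past 2-fold higher and 1, a dim gene that some alternatives put within 2-fold, was lower.

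Markers of other cell types were counted in the same way. No neuron, glia or endothelial marker reached 8.50, among them the endothelial Pecam1, at 5.98 in the proliferating and 6.41 in the differentiating array. Of 11 endothelial markers 1 was past 2-fold higher, the dim tight junction gene Cldn5 (1.05), and it was within 2-fold under some alternatives. Macrophage markers had a mean log2 value of 6.39 in proliferating and 6.36 in differentiating cells. In proliferating cells 2 of 13 were at or above 8.50, Cd14 among them, while the highest value in differentiating cells was 8.10. Cd14 went from 8.67 to 7.63 (-1.03, within 2-fold under some alternatives). Ptprc was dim at 5.04 and 5.15. For osteoblast markers the means were 6.42 and 6.995, with Phex past 2-fold higher (2.53) and Sp7 dim at 5.10 and 5.54. Means were 7.10 and 7.19 for adipocyte, 6.95 and 7.18 for chondrocyte, and 8.82 and 9.23 for smooth muscle markers. Of these lists 0 of 11, 0 of 10 and 2 of 10 genes were past 2-fold higher, the latter being the myosin light chain kinase Mylk (2.04) and the dim Lmod1 (1.77). Fibroblast markers went from a mean of 7.79 to 8.85, with 2 of 11 past 2-fold higher, Lum (4.87) and dermatopontin (Dpt, from 7.71 to 11.43). Col1a1 (0.10), Pdgfra (0.73) and Thy1 (0.32, dim) of the same list were within 2-fold. Satellite and reserve cell markers had 2 of 17 past 2-fold higher, Spry1 and Itga7, and a mean that went from 9.06 to 9.39. In bulk cultures more cells of a type and more RNA per cell cannot be told apart, and the part of such cells in the matrix genes above was not tested.

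Among the 50 genes with the widest differences, several belong to none of the lists. Tm6sf1, which encodes a membrane protein, went from 6.51 to 12.43 (5.92), and Serpina6, the carrier of corticosteroids in blood, from 5.25 to 10.03 (4.78). Hjv, the hemojuvelin gene that is known from muscle and liver as a BMP co-receptor, went from 8.47 to 12.76 (4.30). On the lower side, Tmprss11f, a membrane serine protease, had the widest difference, from 10.44 to 6.27 (-4.17). The immune checkpoint receptor Havcr2 went from 10.61 to 7.27 (-3.34), the Hedgehog-binding Hhip from 10.46 to 7.20 (-3.27) and the neurofilament gene Nefl from 11.56 to 8.68 (-2.87). Ercc6l (-3.30), Pclaf (-2.86), Melk (-2.80) and Ska3 (-2.79) are genes of mitosis and replication that the lists did not hold. Of the 25 highest 22 belonged to a list, and of the 25 lowest 16.

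Neighbours on the chromosome shared their direction more often among the higher genes. Of the 150 genes past 4-fold higher, 31 (20.7%) had an adjacent measured gene that was also past 2-fold higher, against 558 of 7846 expressed genes (7.11%). Examples are Mybph and Myog, Chrng and Chrnd, Slc2a6 and Mymk, and Hrc and Trpm4. Of the 162 genes past 4-fold lower, 15 (9.26%) had an adjacent gene past 2-fold lower, against 8.58%. Gene families that arose in place are part of the first count.

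In siMUNC cells, whose arrays are separate from those of the control cells, the same genes mostly had narrower differences. All 25 of the highest genes were past 2-fold higher there too, with differences from 1.08 (Serpina6) to 5.38 (Myl1), and 24 were wider in control cells. Myl1 (5.17 in control cells) was the exception. All 25 of the lowest were lower there, 23 past 2-fold, with differences from -1.79 (Ccdc73) to -0.87 (Pclaf). The median over the 150 genes past 4-fold higher was 2.93 in control and 1.59 in siMUNC cells, and over the 162 past 4-fold lower -2.45 and -0.999. Since these genes were picked by the control difference, a wider value there is partly fixed by the choice. A few list members were as wide or wider in siMUNC cells: Mymk (3.85 in control and 4.08 in siMUNC cells), Cd36 (3.52 and 4.00), Dcn (2.21 and 2.30), Lrp4 (1.88 and 1.93), Spry1 (2.32 and 2.92) and Dpt (3.72 and 4.70). Others were past 2-fold in control cells and within 2-fold in siMUNC cells: Lbp (3.08 and 0.11), Igfbp4 (1.83 and 0.13), Fst (2.28 and 0.41) and Mybpc2 (2.94 and 0.53). The differences between these pairs were not tested.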

How the data were processed

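RNA from C2C12 cultures was measured on Affymetrix whole-transcript arrays, 1 array for each of 4 groups. The deposited values are log2 signals per transcript cluster, which per the submitters' processing notes came from Affymetrix Expression Console. How the authors corrected, summarized and normalized them, and on which genome build, is not given in the sources used here.

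Of 23332 clusters, 14996 name 1 gene, 1019 several and 7317 none. Each gene was represented by its brightest single-gene cluster, judged by the mean of the 4 arrays. Differences are the deposited log2 values of differentiating minus proliferating cells, and 2-fold and 4-fold limits are descriptions, since 1 array a group allows no test. The named genes were the 25 highest and 25 lowest expressed genes by difference, leaving out model names and chemosensory receptors, plus members of 62 lists (1304 of 1560 genes measured). Members and lists were chosen with earlier results of these data known. Genes outside this rule are named as such. Promoters are from RefSeq (GRCm38.p6). Python 3.11.15, pandas 2.3.3, scipy 1.17.1 and, for normalization alternatives, limma 3.58.1 in R 4.3.3 were used. Alternatives were other normalizations, background offsets, filters, thresholds and the mean over clusters.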

Additional observations from a re-analysis of the deposited data

Results flagged for a closer look

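In 5 of the 926 expressed genes past 2-fold in control cells the difference had the opposite sign in siMUNC cells. The difference between the cell groups was not tested. Aif1l, an actin-binding gene, differed by 1.09 in control and -0.25 in siMUNC cells. The eosinophil chemokine Ccl11 differed by 1.13 and -0.12, and Mustn1, a small gene of muscle and skeleton, by 1.12 and -0.052. These siMUNC values are too small on single arrays to be read as a reversal. On the lower side Clca3b differed by -1.64 and 0.40, and the mast cell protease gene Mcpt8 by -1.72 and 0.31.

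Transcript clusters that the gene counts leave out also held wide differences. Of 1019 clusters that name several genes 331 were expressed, and 16 were past 2-fold higher and 29 lower in control differentiation. Of 7317 clusters with no gene name 2634 were expressed, and 28 were higher and 61 lower. Among expressed genes the shares were 5.21% higher and 6.58% lower. Relative to the expressed clusters, the unnamed ones had smaller shares than these in both directions. Clusters naming several genes had a smaller share on the higher side and a larger share on the lower side.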

How the results depend on the processing

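The number of genes past 2-fold (926, with 409 higher and 517 lower) stayed within 1.5 times under quantile normalization, centring, cyclic loess, an offset of 50, a floor at the 25th percentile, the mean of a gene's clusters and no filter on level. The balance of directions did depend on scaling. Quantile normalization gave 443 higher and 454 lower genes, and cyclic loess 445 and 459. Higher genes made up 49.4% and 49.2% of the calls there, against 44.2% in the deposited values. A filter at the 75th percentile left 546 (241 higher and 305 lower). A threshold of 1.5-fold gave 2022 (823 and 1199), and 4-fold gave 312 (150 and 162), as their construction implies. No named gene turned sign in the normalization, background and cluster settings, and no list median past 2-fold did. The medians of 4 lists near 0 did turn: p53 targets (-0.01, and 0.06 after quantile normalization), apoptosis regulators (-0.03 and 0.03), microtubule genes (0.04, and -0.002 with the floor) and chemokines (-0.01 and 0.06 with the floor). Of 370 list or named genes past 2-fold, 328 stayed past it under all 6 normalization, background and cluster alternatives. The offset narrowed all 50 named differences, 14 of them by over 1.5 times in fold, such as Myoz2 to 5.27 and Ccdc73 to -2.57. The floor narrowed 4 by as much, taking Myoz2 to 5.35 and Ccdc73 to -2.26. With genes past 2-fold in place of 4-fold, the share of promoters with the MEF2 box was 4.84%, with CCAAT 46.3% and with TTTGAA 25.6%. No paired analysis was possible because each group had 1 array and no test was made. Faint signals limit the genes below 8.50, where an array value may be mostly background.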

Other observations

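The following genes belong to no list and were chosen after their values were seen. Arpp21, a phosphoprotein gene of the brain, went from 6.39 to 10.36 (3.97), and Slc6a2, the noradrenaline transporter of nerve cells, differed by 3.54. The splicing regulator Rbfox1 differed by 3.70. Porcn, which acylates Wnt proteins, differed by 3.30. Prkag3, a muscle subunit of the energy-sensing kinase AMPK, went from 7.83 to 11.52 (3.69), and its catalytic partner Prkaa2 differed by 1.87. Cyp2f2, a cytochrome P450 of airway cells, went from 7.29 to 10.76 (3.46) in control cells and differed by 0.47 in siMUNC cells.

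In the other direction, the neurofilament genes Nefl (-2.87) and Nefm (-1.94) and the kinase gene Syk (-1.84) were past 2-fold lower. Airn, the noncoding transcript opposite Igf2r, went from 10.35 to 11.77 (1.41).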
